A study of Mus musculus with 12 samples.

Results

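Skeletal muscle transcripts were followed through 12 bulk RNA-seq libraries of mouse trigeminal ganglion, where the neurons that sense touch, temperature and pain in the face and mouth have their cell bodies. The 32 genes described here, of 55416 identifiers counted in each library, are a named list of genes of the contractile apparatus, calcium handling and energy supply of skeletal muscle. All 32 were found by symbol. They comprise 12 genes typical of fast fibres, 5 typical of slow fibres, 7 sarcomere genes shared by fibre types and 8 genes of calcium release, energy supply and related functions.

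The animals were adult C57Bl6 mice. Each of 6 inducible knockout (iKO) animals carried the Rosa26Cre ERT2 allele and the labelled genotype Fl/Fl for Prdm12, and received tamoxifen. Rosa26 drives Cre broadly, not in neurons alone. Controls 1 to 4 received tamoxifen too, with the genotypes Rosa26Cre ERT2; Fl/+ (control 1), +/+; Fl/+ (controls 2 and 3) and Rosa26Cre ERT2; +/+ (control 4). Controls 5 and 6 were Rosa26Cre ERT2; Fl/Fl as well but were injected with corn oil only. iKO 1 to 3 and controls 1 and 2 were female, the others male. The ganglia were collected 1 month after injection. Total counts ran from 13207526 to 24178970 per library, with iKO 5 the deepest. Prdm12, the targeted gene, had a level of 13.2 to 19.2 CPM (the count scaled to a common library total, with TMM factors between libraries) in iKO and 56.9 to 133 CPM in controls. Sensory neuron genes summed to between 9336 and 11877 CPM and glial genes to between 8502 and 16112 CPM across all libraries.

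A muscle fibre is packed with sarcomeres, in which myosin heads pull on actin filaments and troponin makes the pull depend on calcium. Calcium leaves the sarcoplasmic reticulum through the ryanodine receptor and is pumped back by a calcium ATPase. Fast and slow fibres use different genes for many of the same parts. Skeletal muscle fibres are not counted among the cells of a sensory ganglion, although some of these genes are also used outside muscle.

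All 32 genes had their highest level of the 12 libraries in iKO 5, which was the highest library for 5.3% of the 16637 genes tested. The 32 genes together took 0.189% of the counts in iKO 5, 0.0526% in iKO 6, 0.0411% in control 6 and 0.0283% in iKO 2. In the other libraries they took 0.0118% to 0.0214%. The iKO 5 level was a median of 10.7 times the median of the other 11 libraries over the 32 genes, at least 5 times for 26 of them and at least 10 times for 17, marks that 0.547% and 0.21% of all genes tested reached. In iKO 6 the corresponding median was 2.76 times. The second highest library was iKO 6 for 20 genes, control 6 for 8, iKO 2 for 3 and iKO 4 for 1. In bulk tissue, more muscle and more of each RNA per amount of muscle cannot be told apart.

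**Figure D1:**
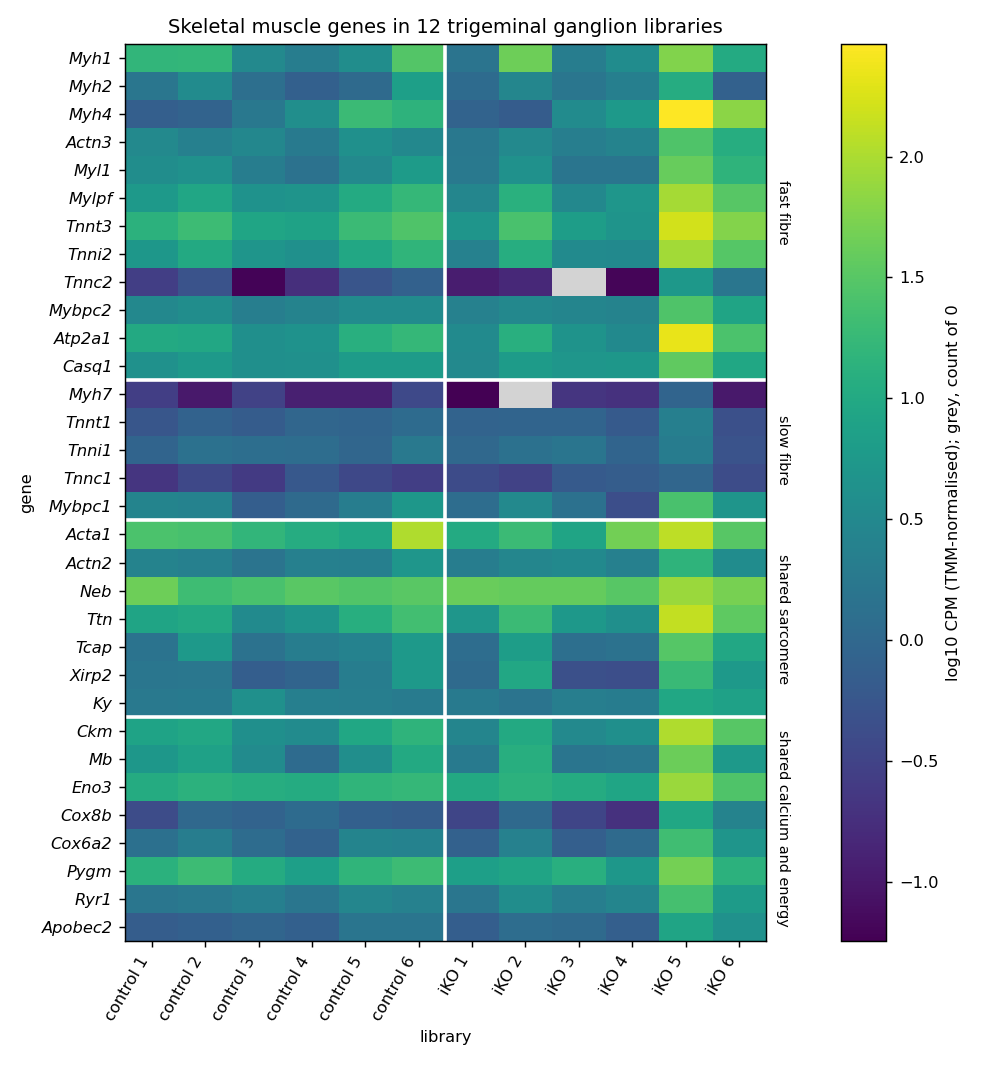
Level of each of the 32 muscle genes (rows, grouped by role) in the 12 libraries (columns), as log10 CPM on the colour scale, with a count of 0 in grey. The iKO 5 column is the brightest for every gene, and iKO 6 and control 6 stand next for most.

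The fast fibre genes made up the greater part of the summed level of the 32 genes in iKO 5 (1065 of 1845 CPM) and iKO 6 (269.8 of 517 CPM), and the lesser part in each of the other 10 libraries. Summed over the 12 fast genes, the next levels were 148 CPM in control 6 and 127 CPM in iKO 2, and the remaining 8 libraries had 26.6 to 93.6 CPM. The lead member by mean level was Myh4 (ENSMUSG00000057003), the myosin heavy chain of the fastest, type 2B fibres. Controls had a lowest, median and highest level of 0.771, 2.79 and 19.3 CPM, and iKO libraries of 0.683, 4.52 and 292 CPM. iKO 5 held the highest value and iKO 6 had 65.5 CPM, while iKO 1 to 4 lay between 0.683 and 5.58 CPM. Of these 4, only iKO 2, the lowest, lay outside the control range. Its iKO 5 level was 84.2 times the median of the other libraries, the highest such ratio of the 32 genes.

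Myh1, the heavy chain of type 2X fibres, followed another order of libraries. iKO 5 had 58.2 CPM, iKO 2 had 44.5 CPM, control 6 had 29.8 CPM and iKO 6 had 10.6 CPM. Controls 1 and 2 had 15.7 and 16.3 CPM, and the other 6 libraries had 1.55 to 3.79 CPM. Myh2, the heavy chain of type 2A fibres, was lower throughout, with 11.4 CPM in iKO 5, 7.02 CPM in control 6 and 0.823 CPM in iKO 6.

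As a share of the counts of these 3 myosin genes, Myh4 made up 85.2% in iKO 6 (95% Wilson interval 83.3 to 86.9%, 1496 counts), 80.7% in iKO 5 (79.9 to 81.6%, 8934 counts) and 79.9% in control 5 (75.7 to 83.5%, 402 counts). It made up 1.42% in iKO 2 (0.749 to 2.68%, 634 counts), 4.25% in control 2 and 4.26% in control 1. In the other 6 libraries the share ran from 24.2 to 56.6%. Myh1 took the larger part where Myh4 was low, with 92.6% in iKO 2, 86.8% in control 1 and 78.8% in control 2. Of the libraries with the most muscle counts after iKO 5, iKO 6 was thus mostly Myh4, while control 6 (58.2% Myh1, 28.1% Myh4) and iKO 2 were mostly Myh1. The 3 libraries with the lowest Myh4 share were from females and the 3 with the highest were from males, and iKO 1, also female, had 24.2%, below the lowest male share of 27.7%. The remaining female, iKO 3, lay within the range of the males at 48.0%. These intervals cover counting error only. Of the 75-base windows of the reference transcripts, 16.6% in Myh1, 16.3% in Myh2 and 9.68% in Myh4 occur identically in another myosin gene of the family, so some reads could have been counted for either.

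**Figure D2:**
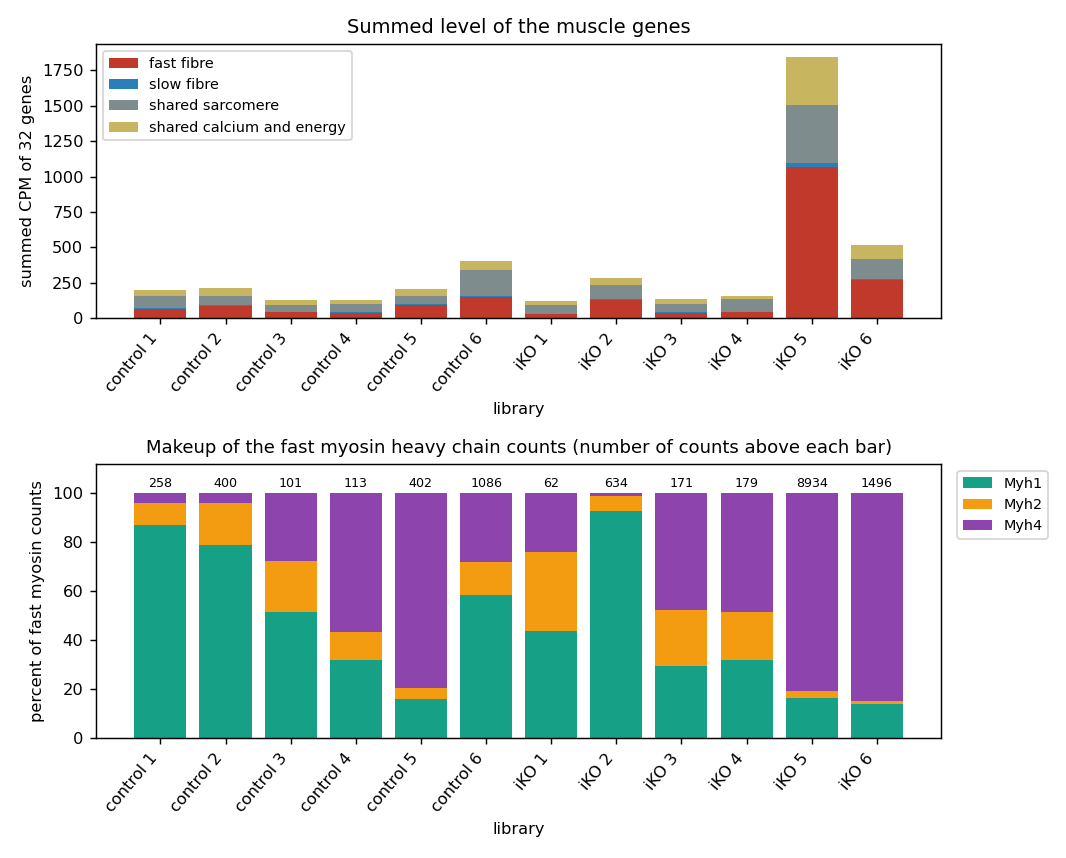
Top, summed CPM of the 32 genes in each library, stacked by role. Bottom, percent of the Myh1, Myh2 and Myh4 counts that belong to each gene, with the number of counts above each bar. iKO 5 stands far above the other libraries in the sum, and the lower panel shows libraries mostly of Myh4 (controls 4 and 5, iKO 5, iKO 6), libraries mostly of Myh1 (controls 1, 2, 3 and 6, iKO 2) and libraries with no gene in the majority (iKO 1, 3 and 4). The majority is unclear in 2 libraries by 95% Wilson intervals, control 3 (Myh1, 41.9 to 61.0%) and control 4 (Myh4, 47.4 to 65.4%).

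Myh1 and Myh4 lie in 1 cluster of myosin genes on chromosome 11, and their promoters are shown because these genes took opposite shares between libraries. Each is 300 bases from RefSeq (build GRCm38.p6), of which the last 50 follow the annotated start, with TATAAA on either strand and the CArG box, the site of serum response factor, in capitals. The Myh4 promoter, at chr11:67237562-67237861 on the plus strand, has a TATAAA match 31 bases before the start and the Myh1 promoter, at chr11:67199852-67200151 on the plus strand, has one 32 bases before it. The Myh4 promoter alone of these 2 holds a CArG match, 104 bases before the start. Acta1, described below, has a CArG match 73 bases before its start (chr8:123894726-123895025, minus strand).
Myh4: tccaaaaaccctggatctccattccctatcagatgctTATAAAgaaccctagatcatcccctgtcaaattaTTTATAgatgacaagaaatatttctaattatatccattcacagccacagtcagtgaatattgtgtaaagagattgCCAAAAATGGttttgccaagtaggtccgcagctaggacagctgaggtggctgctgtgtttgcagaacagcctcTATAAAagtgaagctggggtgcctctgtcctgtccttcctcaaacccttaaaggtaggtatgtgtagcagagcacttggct
Myh1: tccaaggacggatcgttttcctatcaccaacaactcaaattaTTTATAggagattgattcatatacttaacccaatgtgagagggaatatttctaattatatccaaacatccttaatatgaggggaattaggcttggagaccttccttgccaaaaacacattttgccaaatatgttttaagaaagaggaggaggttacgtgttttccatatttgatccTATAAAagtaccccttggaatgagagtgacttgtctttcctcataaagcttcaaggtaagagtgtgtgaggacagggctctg
Acta1: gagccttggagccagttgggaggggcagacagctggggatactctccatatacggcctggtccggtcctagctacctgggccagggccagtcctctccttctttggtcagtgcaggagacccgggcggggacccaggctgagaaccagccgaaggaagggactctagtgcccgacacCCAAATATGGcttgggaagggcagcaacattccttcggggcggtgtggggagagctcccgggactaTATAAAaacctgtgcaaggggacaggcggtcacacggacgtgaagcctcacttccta

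Promoters were matched for 26 of the 32 genes and searched on both strands. A CArG box was in 2 of them (7.69%, Acta1 and Myh4), against 1.57% of all 27025 promoters. TATAAA was in 8 (30.8%), against 14.2% of all. The E box CANNTG, the site of MyoD and its relatives, was in 23 (88.5%), against 72.1%, and the MEF2 motif CTANNNNTAG in 2 (7.69%, Ttn and Xirp2), against 3.70%. A match describes the letters and shows no binding.

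The thin-filament and regulatory genes of fast fibres kept close proportions to each other. Tnnt3, Tnni2 and Tnnc2 encode the subunits of fast troponin, and Mylpf and Myl1 the light chains of fast myosin. Tnnt3 was at 163 CPM in iKO 5, 59.2 CPM in iKO 6, 28.1 CPM in control 6 and 4.74 to 25.1 CPM elsewhere. iKO 5 and iKO 6 had 90.6 and 30.2 CPM of Tnni2, against 2.40 to 15.5 CPM in the other 10 libraries. For Mylpf these libraries had 91.9 and 31.4 CPM, against 2.92 to 16.8 CPM. For each of these genes iKO 5 and iKO 6 lay above every other library. Tnnc2 was near the counting limit outside iKO 5 (5.38 CPM) and iKO 6 (1.65 CPM), with a count of 0 in iKO 3, which allows up to 0.127 CPM. Of its exonic bases, 74.0% overlap other genes on the opposite strand, mainly Ube2c, whose reads cannot be told apart from its own in a library without strand.

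Measured per kilobase of exon and relative to Ckm, the muscle creatine kinase, in the same library, Tnni2 varied 1.87-fold between the lowest and the highest library, Cox6a2 1.89-fold, Myl1 1.90-fold, Mylpf 1.99-fold, Tnnt3 2.02-fold and Ttn 2.22-fold. Ckm itself ran from 2.81 CPM in iKO 1 to 105 CPM in iKO 5. These genes therefore held nearly 1 ratio to Ckm across libraries whose Ckm level differed widely. Of the exonic bases of Ckm, 15.5% overlap other genes, with the largest overlap in an antisense gene. At the other end, the level relative to Ckm varied 12.9-fold for Myh1, 42.2-fold for Myh4, 31.5-fold for Tnni1, 21.2-fold for Tnnt1 and 19.2-fold for Neb. For Neb, Tnnt1 and Tnni1 the ratio was lowest in iKO 5 or iKO 6. The myosins were low in different libraries, Myh4 in iKO 2 and Myh1 in iKO 6.

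**Figure D3:**
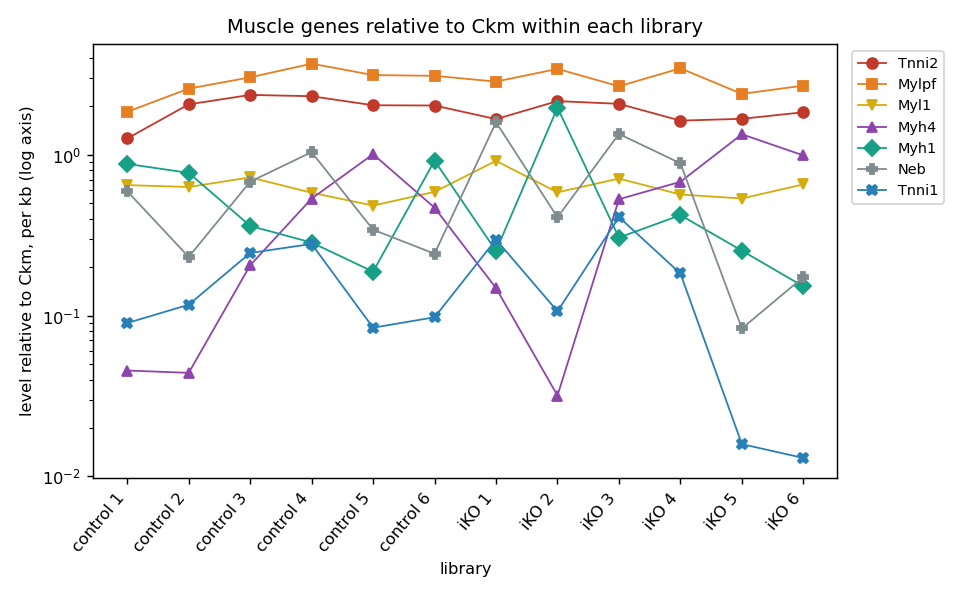
Level per kilobase relative to Ckm in each of the 12 libraries, on a log axis, for 7 of the genes. Tnni2, Mylpf and Myl1 run nearly flat, Myh4 and Myh1 cross, and Neb and Tnni1 are lowest in iKO 5 and iKO 6.

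Mb, myoglobin, which stores oxygen and is richest in oxidative fibres, was highest relative to Ckm in iKO 2 (2.29 per kilobase) and lowest in iKO 6 (0.348). iKO 2 was also the library with the lowest Myh4 share and iKO 6 the one with the highest. In CPM, Mb measured 42.9 in iKO 5, 12.2 in iKO 2, 10.2 in control 6 and 5.71 in iKO 6. Of its exonic bases, 31.9% overlap an antisense gene.

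Calcium handling in fast fibres is represented by Atp2a1, the calcium pump SERCA1, and Casq1, the calcium store protein calsequestrin. Atp2a1 had 221 CPM in iKO 5, 26.4 CPM in iKO 6 and 17.0 CPM in control 6, and 3.33 to 12.7 CPM in the rest, so that iKO 5 had 22.9 times the median of the others. Of the exonic bases of Atp2a1, 21.9% overlap other genes, with the largest overlap in Rabep2 on the opposite strand. Casq1 had a flatter profile, with 4.01, 5.06 and 6.18 CPM as the lowest, median and highest control, and 3.21, 5.70 and 36.2 CPM in iKO. Without iKO 5 and iKO 6, its highest level was 6.18 CPM and its lowest 3.21 CPM.

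Of the fast structural genes, Actn3, the fast isoform of the Z-disc protein alpha-actinin, had 1.92, 3.01 and 4.15 CPM in controls and 1.77, 2.88 and 27.7 CPM in iKO, with 11.5 CPM in iKO 6. Mybpc2, the fast myosin-binding protein C, had 2.22, 3.29 and 3.77 CPM in controls and 2.46, 2.95 and 27.5 CPM in iKO, with 8.43 CPM in iKO 6. In iKO 1 to 4, Actn3 ran from 1.77 to 3.19 CPM and Mybpc2 from 2.46 to 3.11 CPM, which overlapped the controls.

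Apart from Mybpc1 in iKO 5, slow fibre genes were low in every library. Mybpc1, the slow form of myosin-binding protein C, which many fast fibres also express, led this group with 0.741, 2.32 and 5.19 CPM in controls and 0.449, 2.29 and 25.0 CPM in iKO. Myh7, the slow myosin heavy chain, did not exceed 0.377 CPM in any control and reached 0.890 CPM in iKO 5. It had a count of 0 in iKO 2, which allows up to 0.227 CPM. Tnni1 and Tnnt1, of slow troponin, had 2.06 and 2.31 CPM in iKO 5, and their lowest levels of all libraries, 0.514 and 0.463 CPM, in iKO 6. Tnnc1, the troponin C of slow and heart muscle, ran from 0.210 CPM in control 1 to 0.971 CPM in iKO 5.

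Per kilobase of exon, the fast genes made up 98.6% of the summed level of the 17 fibre-type genes in iKO 6 and 98.2% in iKO 5. The share was 90.4 to 96.8% in the other 10 libraries, with the lowest values in iKO 3, iKO 1 (90.7%) and control 4 (92.2%), where muscle counts were few. The ratio of fast to slow troponin I, Tnni2 to Tnni1, was 141 per kilobase in iKO 6 and 106 in iKO 5, and 5.06 to 24.2 elsewhere. The ratio of Tnnt3 to Tnnt1 was 178 in iKO 6 and 98.4 in iKO 5, and 8.08 to 38.4 elsewhere. Both pairs put iKO 5 and iKO 6 above all other libraries. The ratio of Mybpc2 to Mybpc1 did not, with 1.38 in iKO 5 and 2.16 in iKO 6 against 7.16 in iKO 4 and 3.76 in control 3. Actn3 to Actn2 was highest in iKO 6 (4.19), but iKO 5 (2.49) lay just below control 3 (2.51). In the troponin pairs, Tnni1 ranged only from 0.514 to 2.06 CPM and Tnnt1 from 0.463 to 2.31 CPM, with 10 and 9 counts in iKO 6. The troponin ratios therefore mostly followed the level of the fast partner. Fibre type and amount of muscle cannot be told apart in them.

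Among the sarcomere genes shared by fibre types, Neb, which encodes the thin-filament ruler nebulin, had the highest mean level and was present in every library. Controls had 20.4, 30.9 and 44.4 CPM, and iKO libraries 32.1, 39.9 and 79.9 CPM. The groups overlapped, and iKO 5 had 2.42 times the median of the others. Ttn, the giant spring protein titin, rested on a lower floor, with 3.46, 9.20 and 22.3 CPM in controls and 4.04, 12.5 and 132 CPM in iKO. Tcap, the titin cap at the Z-disc, was at 30.7 CPM in iKO 5, 9.72 CPM in iKO 6 and 1.20 to 6.68 CPM elsewhere.

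Acta1, the actin of skeletal muscle, departed from the other genes. Its level was 125 CPM in iKO 5, 107 CPM in control 6, 47.2 CPM in iKO 4, 32.3 CPM in iKO 6 and 8.45 to 25.9 CPM in the rest. Control 6 was thus close to iKO 5 for Acta1, while for Ckm it had 14.9 against 105 CPM. iKO 4, in which the 32 genes took 0.0152% of counts, had the highest Acta1 level relative to Ckm of any library. Myh3, the embryonic myosin heavy chain, which is not among the 32, was at 17.0 CPM in iKO 5, 8.06 CPM in control 6 and 5.13 CPM in iKO 4, and at or below 0.988 CPM in the other 9. Actc1, the heart actin used in developing skeletal muscle, was at 37.3 CPM in iKO 5 and 14.4 CPM in control 6, and had 7.82 CPM in iKO 4, but also 9.22 CPM in iKO 1 and 8.48 CPM in control 1. The reference transcripts of Acta1 share no 75-base window with those of the other actins compared.

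Of the other shared sarcomere genes, Xirp2, an actin-binding repeat protein, was at 18.9 CPM in iKO 5, 9.48 CPM in iKO 2, 5.75 CPM in control 6 and 5.61 CPM in iKO 6. Actn2, alpha-actinin of all fibre types and heart, was at 14.6 CPM in iKO 5, 5.00 CPM in control 6 and 1.54 to 3.60 CPM elsewhere. Ky, the protease-like protein named after the kyphoscoliosis mouse, had 1.82, 2.10 and 4.14 CPM in controls and 1.52, 2.12 and 9.39 CPM in iKO, with 7.66 CPM in iKO 6. Control 3 held the highest control value of Ky, although it ranked low for the contractile genes.

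In the group of calcium release, energy supply and related genes, Eno3, the muscle enolase of glycolysis, had the highest mean level. Controls had 11.1, 12.7 and 17.1 CPM, and iKO libraries 8.78, 12.3 and 79.6 CPM, with 27.6 CPM in iKO 6. Pygm, the muscle glycogen phosphorylase, had 7.20, 14.2 and 19.8 CPM in controls and 5.32, 10.3 and 48.9 CPM in iKO. iKO 6, at 13.8 CPM, lay below the control median for Pygm. Eno3 and Pygm, like Neb and Casq1, did not fall near 0 in any library.

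Ryr1, the calcium release channel of skeletal muscle, had 1.61, 2.05 and 2.89 CPM in controls and 1.66, 3.24 and 23.3 CPM in iKO, with 6.22 CPM in iKO 6. Apobec2, a muscle member of a deaminase family, had 0.701, 0.853 and 1.60 CPM in controls and 0.744, 1.16 and 8.29 CPM in iKO, with 4.27 CPM in iKO 6. Cox6a2 and Cox8b, subunits of cytochrome c oxidase found in muscle and heart, were at 21.3 and 9.18 CPM in iKO 5 and at 4.94 and 2.57 CPM in iKO 6. In the other 10 libraries neither exceeded 2.71 CPM. For each of these 4 genes iKO 5 and iKO 6 were the 2 highest libraries, apart from the remaining 10.

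In the comparison of 6 iKO against 6 controls, 28 of the 29 muscle genes that passed the filter on low counts had a higher fitted level in iKO, against 50.5% of all genes tested. The filter removed Tnnc2, Myh7 and Tnnc1. The median log2 fold change was 1.19 over the 29 and 0.00 over all genes. None of the 29 passed an adjusted p of 0.05 in edgeR's quasi-likelihood test, while 63 of 16637 genes did (0.379%). At an unadjusted p under 0.05, 8 muscle genes were higher in iKO and none lower, where 4.9% of all genes were higher and 10.9% differed in either direction. DESeq2, on the same genes, called 1 muscle gene, Ryr1, at an adjusted p of 0.0402, among 332 of 16637 genes called (2%), and gave 6 an unadjusted p under 0.05. With no filter on low counts, edgeR called Myh4 alone of the 32, among 0.378% of genes.

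The 8 genes were Myh4, Ryr1, Apobec2, Neb, Actn3, Ky, Casq1 and Mybpc2. Myh4 had a log2 fold change of 3.34 ± 0.922 (SE, n = 6 each, adjusted p = 0.159 in edgeR). Ryr1 had 1.61 ± 0.484 (adjusted p = 0.205) and Apobec2 1.39 ± 0.471 (adjusted p = 0.278). The values were 0.63 for Neb, 1.30 for Actn3, 0.80 for Ky, 1.02 for Casq1 and 1.18 for Mybpc2, with adjusted p from 0.301 to 0.449 in edgeR. For none of the 32 genes did the 6 iKO libraries lie wholly above or below the 6 controls, whereas 0.679% of genes tested lay wholly above and 0.523% wholly below. The spread between libraries was wide for these genes. The biological coefficient of variation fitted by edgeR had a median of 0.766 over the 29 genes (0.264 to 1.02) against 0.113 over all genes, and 1.14% of genes had a value above that median.

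Without iKO 5 and iKO 6, the 29 genes had a median log2 fold change of -0.37, with 7 of them above 0. None was called in edgeR, where 0.101% of all genes were. Myh4 went from 3.34 to 0.18 ± 0.854 (SE), Ryr1 from 1.61 to 0.43 ± 0.269 and Apobec2 from 1.39 to 0.02 ± 0.346. Ckm went from 1.33 to -0.84 and Atp2a1 from 1.79 to -0.90. The only gene with an unadjusted p under 0.05 was then Pygm, at -1.01 ± 0.306 (n = 4 iKO and 6 control, adjusted p = 0.366 in edgeR). Without iKO 5 alone the median was 0.32 with 21 genes above 0, and without iKO 6 alone it was 1.24 with all 29 above 0. iKO 5 and iKO 6 held the largest shares of muscle counts, so leaving both out had to lower the median. Control 6, the next in that share, stayed in. The fall and the change of sign are therefore a description, not a test.

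**Figure D4:**
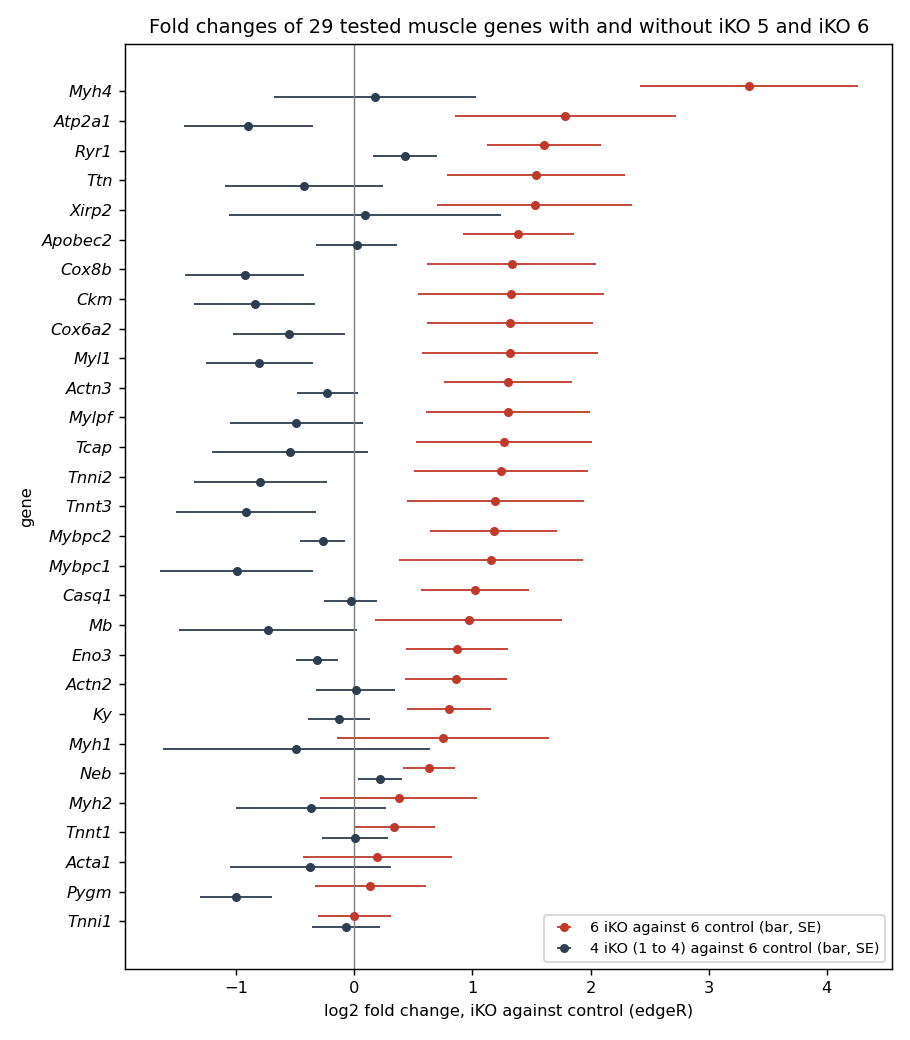
edgeR log2 fold change of iKO against control for the 29 tested muscle genes, with all 12 libraries (red) and without iKO 5 and iKO 6 (dark), bars showing the standard error. Most red points lie right of 0 and most dark points at or left of it.

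The labels number the replicates in both groups, and the comparison was also made within replicates 1 to 4 and within replicates 5 and 6. The controls of replicates 5 and 6 had received corn oil and had the iKO genotype, while controls 1 to 4 had tamoxifen and other genotypes. The set thus cannot be told apart from the control's injection and genotype. Replicates 5 and 6 were male, replicates 1 to 4 held both sexes, and sex was a term of the fit. In replicates 1 to 4, 12 of the 29 genes had a log2 fold change above 0 and 17 below, with a median of -0.16, where 48.4% of all genes were above 0. None passed the threshold in edgeR, while 0.114% of all genes did, and 1, Pygm at -0.81 ± 0.361 (SE), had an unadjusted p under 0.05, as 7.93% of all genes had. In replicates 5 and 6 the median was 2.02 and 28 of 29 were above 0, against 48.5% of all genes. None passed the threshold (0.00601% of all genes did), and the lowest adjusted p in edgeR was 0.134, for Ky. At an unadjusted p under 0.05, 21 of the 29 were higher in iKO, against 3.8% of all genes. iKO 5 and iKO 6 held the largest shares of muscle counts, so a rise in this set was known beforehand. Many of the genes also rose together, so the 21 are not independent and cannot be set against that share. Both limits hold as well for the counts of genes without overlap and for the difference between the sets, given below. These counts are a description, not a test.

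Both iKO libraries lay above both controls of replicates 5 and 6 for 21 of the 32 genes and for 19 of the 29 tested, against 20.6% of all genes tested. The exceptions were mostly genes in which control 6 or control 5 was high. For Acta1, control 6 (107 CPM) lay above iKO 6 (32.3 CPM), and for Myh1, control 6 (29.8 CPM) lay above iKO 6 (10.6 CPM). The log2 fold change in replicates 5 and 6 was 3.41 ± 0.621 (SE) for Myh4, 2.45 ± 0.404 for Actn3, 2.50 ± 0.597 for Ckm and 3.07 ± 0.772 for Atp2a1. For Acta1 it was 0.44 ± 0.960, for Myh1 1.02 ± 1.27, and for Tnni1 -0.08 ± 0.529.

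The difference between the replicate sets had a median of 2.23 on the log2 scale over the 29 genes, with 28 above 0 against 46.9% of all genes. None passed the threshold in edgeR, nor did any gene of the whole table (0%), and the adjusted p was 1.00 for each of them. At an unadjusted p under 0.05, 21 of the 29 differed, all toward a higher iKO value in replicates 5 and 6, against 2.25% of all genes. The call of 0 depended on the filter and on iKO 6. With no filter on low counts, 27 of the 32 genes passed in replicates 5 and 6 (2.78% of all genes), 24 in the difference (1.58%) and 7 in replicates 1 to 4 (1.7%). Without iKO 6, 9 of the 29 passed in replicates 5 and 6 (0.155% of all genes) and 5 in the difference (0.0896%), with iKO 5 as the lone iKO library, assumed to vary like the others. Without control 3, 1 gene, Ky, passed in replicates 5 and 6 (0.0119%). The 9 called without iKO 6 were Myh4, Atp2a1, Actn3, Mybpc2, Casq1, Myl1, Eno3, Ryr1 and Apobec2.

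The called genes of the whole comparison hardly changed when the 32 muscle genes were taken out of the counts before scaling, with 68 called, of which all 63 were shared. The 32 genes held at most 0.189% of the counts of a library and none was among the 63. Taking them out could thus hardly change the calls, and other muscle genes stayed in. With the mean log2 level of the 32 genes as a covariate, 67 were called, 53 of them shared. Without iKO 5 and iKO 6, 17 were called, 16 of them shared, and all 63 kept their direction. The 63 were picked in the full fit, which shared most of its libraries with this one, so the kept direction says little. Among the lost calls with the smallest p were Grik1 (log2 fold change from -0.63 to -0.54), Tagln3 (0.27 to 0.28), Chrna7 (-0.51 to -0.40) and Atp6ap1l (0.66 to 0.70). Of the other lost calls, Fyb2 moved further, from -1.18 to -0.87. The fit also had 2 fewer libraries, and why calls were lost was not tested.

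Beyond the 32 genes, 82 other muscle genes were listed, of which 56 were tested. None passed the threshold in edgeR (0.379% of all genes did). At an unadjusted p under 0.05, 10 were higher, against 4.9% of all genes, and 1 lower. With 50.5% of all genes above 0, 53 of the 56 were, and their median log2 fold change was 0.42. Among other sarcomere genes, Ldb3, a Z-disc protein, had 48.4 CPM and Tpm2, a tropomyosin, 82.9 CPM in iKO 5, against 27.1 to 35.1 CPM and 15.3 to 26.8 CPM elsewhere. Of calcium and excitation genes, Pvalb, the calcium buffer of fast fibres that sensory neurons also express, had 165 CPM in iKO 5 and 75.4 to 102 CPM elsewhere. Srl, sarcalumenin, had 32.7 CPM in iKO 5 and at most 12.6 CPM elsewhere. Of other energy genes, Pfkm ran from 262 to 321 CPM and Phka1 from 45.0 to 55.6 CPM, and both were present at these levels in every library.

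Summed over their lists, genes of the nerve-muscle junction and muscle regulators with stem cell genes were not raised in iKO 5. Most of each sum came from genes present in every library, such as Colq, Rapsn and Mef2c, so the sums say little on the lower genes. The 8 endplate genes summed to 25.2 CPM in iKO 5 and 22.1 to 29.1 CPM elsewhere, with Chrnd and Chrng, subunits of the muscle acetylcholine receptor, at or below 0.0759 CPM throughout. Colq and Rapsn, which anchor acetylcholinesterase and the receptor, had 7.65 and 6.92 CPM in iKO 5, inside the range of the other libraries. Of the muscle regulators and stem cell genes, Mef2c and Cdh15 led with 74.6 and 7.77 CPM in iKO 5, inside the range of the other libraries (54.3 to 85.3 CPM and 5.62 to 9.04 CPM). Of the low members of this list, Myf6, Myod1 and Myog peaked there, some near the counting limit of 0.124 to 0.227 CPM, and others did not. Myf6, a myogenic factor kept on in mature fibres, was at 1.13 CPM in iKO 5, 0.463 CPM in iKO 6, 0.330 CPM in control 6 and 0.228 CPM in iKO 2, the libraries with the most muscle counts. Myod1 and Myog, factors of muscle differentiation, were both at 0.405 CPM in iKO 5 and at most 0.0701 and 0.192 CPM elsewhere. Pax7, of muscle stem cells, was at 0.324 CPM in iKO 5, with its highest level, 1.12 CPM, in control 1. Myf5 was also highest in control 1, Pax3 in control 2, Mymk and Mymx in control 3, and Mstn in iKO 6. Among developmental and eye muscle myosins, Myh8 and Myh6 had the highest mean levels, with 10.2 and 10.6 CPM in iKO 5 and up to 11.2 and 14.7 CPM in control 6. Heart genes summed to 111 CPM in iKO 5, their lowest of the 12, but most of the sum was Ryr2. Ryr2 ran from 90.5 CPM in iKO 5 to 126 CPM in iKO 2, so the sum mostly followed this gene. Myh6, the next of the list, was at 10.6 CPM in iKO 5, higher than in any library but control 6. Tendon genes, led by Fmod and Thbs4, summed to 83.9 CPM in iKO 5 and 56.1 to 116 CPM elsewhere.

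Counting every gene of at least 5 CPM that reached 5 times the median of the other 11 libraries, iKO 5 had 78 such genes (0.635% of genes at that level), of which 25 were among the 32 and 17 were other muscle genes. The remaining 36, on none of the muscle lists, were led by Bpifb2, Mybphl, Fcnb, Cytl1 and Elane. They can still include muscle genes, as the name of Mybphl, myosin binding protein H-like, shows. iKO 6 had 197 such genes (1.6%), of which 3 were among the 32, and control 6 had 92 (0.742%), of which 2 were. In iKO 2, Myh1 and Xirp2 were 2 of 14 (0.117%), and in control 5, Myh4 was 1 of 4 (0.0332%). In at least 1 library 25 of the 32 met it. The 7 that did not were Ky, Myh7, Neb, Pygm, Tnnc1, Tnni1 and Tnnt1.

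**Figure D5:**
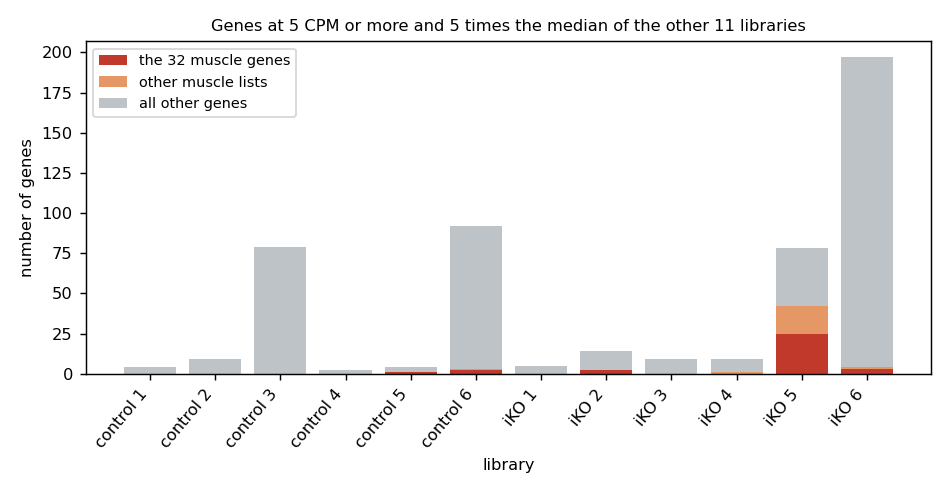
Number of genes at 5 CPM or more and at least 5 times the median of the other 11 libraries, by library, split into the 32 muscle genes, other muscle lists and all other genes. In iKO 5, 25 of 78 are among the 32 and 17 are other muscle genes, while in iKO 6, control 6 and control 3 nearly all are other genes.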

How the data were processed

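Trigeminal ganglia of 12 mice, 6 iKO and 6 control as labelled, were measured by RNA-seq of polyadenylated RNA with a kit that does not mark strand, per the labels' protocols. Per the submitters' processing notes, reads involved GRCm39, featureCounts 2.0.1, STAR 2.7.8a and bcl2fastq 2.20.0.422. The values deposited by the authors are raw counts per gene. Which annotation release and counting options were used is not given in the sources used here. Symbols matched 52083 of 55416 identifiers, and the 3333 without one held 0.274% of counts. Exon lengths, overlaps, shared windows and promoters came from GRCm38 references, an older build.

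The test across genes was that of edgeR 4.0.16 (R 4.3.3, filterByExpr, TMM factors of 0.969 to 1.02, quasi-likelihood test with sex as covariate), with Benjamini-Hochberg adjustment over 16637 genes and a threshold of 0.05. Replicates 1 to 4 and 5 and 6 were contrasts of 1 fit over all 12 libraries. Levels are TMM-normalised CPM. A count of 0 allows up to 3 counts, 0.124 to 0.227 CPM by library, for counting error only. The p-values measure the spread between these animals. The scripts were tested on simulated data. Alternatives were another scaling, no or a stricter filter, DESeq2 1.42.0, other covariates, a replicate block, subsets of animals and leaving out each library. Genes given in full are the leading gene of each role and those with an unadjusted p under 0.05. Of the other lists, the 2 with the highest mean are named where none passed, and of genes high in 1 library the 5 highest by fold outside the muscle lists. Some genes that these rules pick are not reported here. Myh3, Actc1, Chrnd, Chrng, Myf6, Myod1, Myog, Pax7, Myf5, Pax3, Mymk, Mymx, Mstn, Acta2, Myh11, Des, Cnn1 and Actg2 and the further members were named after their values were seen. The members and lists were chosen with earlier results of these data known.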

Additional observations from a re-analysis of the deposited data

Results flagged for a closer look

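In 24 of the 32 muscle genes, iKO 5 stood apart from the other 5 iKO libraries by Dixon's test. The test sets the gap to the nearest library against the group's range at the 95% critical value. Chance passes this mark in about 1 of 20 groups for any 1 gene. Many of these genes rose together in iKO 5, so the 24 are not independent and cannot be set against that rate. The share over all genes was not tested. The 24 were Myh4 (292 CPM), Atp2a1 (221 CPM), Tnnt3 (163 CPM), Ttn (132 CPM), Acta1 (125 CPM), Ckm (105 CPM), Mylpf (91.9 CPM), Tnni2 (90.6 CPM) and Eno3 (79.6 CPM). They included Pygm (48.9 CPM), Mb (42.9 CPM), Myl1 (40.1 CPM), Casq1 (36.2 CPM), Tcap (30.7 CPM), Mybpc2 (27.5 CPM), Mybpc1 (25.0 CPM), Ryr1 (23.3 CPM) and Cox6a2 (21.3 CPM). At lower levels they were Actn2 (14.6 CPM), Myh2 (11.4 CPM), Cox8b (9.18 CPM), Tnnc2 (5.38 CPM), Tnnt1 (2.31 CPM) and Myh7 (0.890 CPM). The share of counts in the 32 genes, 0.189% in iKO 5, stood apart too, with 0.0526% in iKO 6 as the next value.

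Among controls, control 6 stood apart for Acta1 (107 CPM, next 25.9 CPM), Actn2 (5.00 CPM), Xirp2 (5.75 CPM) and the share of counts in the 32 genes (0.0411%). Control 3 stood apart for Ky (4.14 CPM, next 2.28 CPM). Why these libraries stood apart was not tested.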

How the results depend on the processing

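Of the 63 genes called in all, no filter gave 138, DESeq2 332, tamoxifen-injected animals alone 28, and the set without iKO 5 and iKO 6 gave 17. Leaving out 1 library gave 23 to 88. Muscle genes called went from 0 to 1 with no filter (Myh4) and with DESeq2 (Ryr1). They stayed at 0 without any 1 library. In the replicate sets, no filter gave 7 in replicates 1 to 4, 27 in replicates 5 and 6 and 24 in the difference. Leaving out 1 library gave 0 in replicates 1 to 4, 0 to 9 in replicates 5 and 6 (9 without iKO 6, 1, Ky, without control 3) and 0 to 5 in the difference (5 without iKO 6). The cause was not tested.

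Replicate numbers did not pair the libraries. Deviations of same-numbered libraries correlated between -0.40 and 0.35, and 1 of 12 libraries correlated best with its own number. The replicate block in place of sex gave 34 called genes and 0 muscle genes, moved the median log2 fold change of the 29 muscle genes from 1.19 to 0.58 and that of Myh4 from 3.34 to 2.04, and turned Pygm from 0.14 to -0.19. The replicate set added to sex gave a median of 0.68.

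Without iKO 5 and iKO 6 the log2 fold change turned for 21 of 29 muscle genes. It became -0.49 for Myh1, -0.37 for Myh2, -0.23 for Actn3, -0.81 for Myl1, -0.49 for Mylpf, -0.91 for Tnnt3, -0.80 for Tnni2, -0.27 for Mybpc2, -0.90 for Atp2a1 and -0.032 for Casq1. It became -0.997 for Mybpc1, -0.37 for Acta1, -0.43 for Ttn, -0.55 for Tcap, -0.13 for Ky, -0.84 for Ckm and -0.73 for Mb. It became -0.31 for Eno3, -0.93 for Cox8b, -0.55 for Cox6a2 and -1.01 for Pygm. Adding the replicate set turned Pygm to -0.18. Tnni1, at -0.00 in all 12, turned to 0.00051 with no sex term and 0.079 in tamoxifen-injected animals. Leaving out 1 library turned 8 genes in some fits, with ranges of -0.25 to 1.48 for Myh1, -0.63 to 0.96 for Myh2, -0.22 to 0.55 for Tnnt1, -0.34 to 0.21 for Tnni1, -0.089 to 1.43 for Mybpc1, -0.37 to 0.92 for Acta1, -0.34 to 1.27 for Mb and -0.64 to 0.39 for Pygm. No gene turned with the other scaling, filters or DESeq2.

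The fast share had a median of 95.9% over libraries per kilobase and 94.0% in raw counts. At 3 times the median, 27 genes met the mark in at least 1 library in place of 25. Depth limits Tnnc2, Myh7 and Tnnc1, which had few counts outside iKO 5, and leaves shares of fast myosins from as few as 62 counts in iKO 1.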

Other observations

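Markers of other tissues were uneven between libraries too, some in other orders than muscle and some with their highest level in iKO 5 as well. Pituitary genes, led by Gh and Prl, summed to 2810 CPM in iKO 3, 689 CPM in control 2 and 348 CPM in iKO 2, and to 20.5 CPM in iKO 5. Red cell genes, led by Hbb-bs and Hbb-bt, summed to 915 CPM in control 6 and 196 CPM in iKO 5, and to 24.5 to 124 CPM in the other 10. Bone and cartilage genes, led by Ibsp and Col2a1, summed to 75.9 CPM in iKO 5 and 74.8 CPM in control 6, the 2 libraries with the most Acta1, and to 19.2 to 30.4 CPM elsewhere. Adipocyte genes, led by Car3 and Cfd, summed to 7.50 to 23.7 CPM in all 12. Smooth muscle genes summed to 592 to 688 CPM, most of it Synm (487 to 573 CPM), but 5 of the 9 were at 3 times the median of the other libraries or more in iKO 5. These were Acta2, Myh11, Des, Cnn1 and Actg2. Acta2, the smooth muscle actin, was at 34.5 CPM in iKO 5, 32.4 CPM in iKO 1, 25.3 CPM in control 4 and 24.7 CPM in control 6. Myh11, the smooth muscle myosin, was at 20.6 CPM in iKO 5, 20.4 CPM in iKO 1 and 18.4 CPM in control 4. Des, desmin, which skeletal muscle also uses, was at 31.2 CPM in iKO 5, 10.03 CPM in iKO 6 and 3.53 to 9.29 CPM elsewhere. None of these 5 lists had a gene past the threshold in edgeR, which 0.379% of all genes tested passed. Between 2 (adipocyte) and 7 genes were tested per list, so the absence of calls says little. Their part in the muscle values was not tested.

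Among the genes with the largest ratios in iKO 6 outside the muscle lists were Krt15 (89.3 CPM), Itln1 (68.5 CPM), Tmprss11a (9.77 CPM) and Aqp3 (18.1 CPM), several of them known from surface epithelia. In control 6 they were Ppbp, Ctsg, Fcnb, Gata1 and Treml1, known from blood cells and platelets, with 53.1 CPM for Ppbp. Sln, sarcolipin, an inhibitor of the calcium pump, was at 5.14 CPM in iKO 6 and 0.769 CPM in iKO 5, whereas Atp2a1 was higher in iKO 5 than in iKO 6. Myh15, a myosin heavy chain of eye muscle, was at 9.26 CPM in iKO 5 and at most 1.45 CPM elsewhere. Both were named after their values were seen.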
